A study of Homo sapiens with 40 samples.

Results

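The mRNAs of 8 polyamine pathway genes, ODC1, SRM, SMS, AMD1, OAZ1, OAZ2, AZIN1 and SAT1, were followed through 40 RNA-Seq libraries of HEK293, an established human embryonic kidney cell line. They were chosen by symbol, as the central genes of the pathway and genes under upstream open reading frame or frameshift control, and all 8 were found among the 55765 symbols counted in each library. The study asked how the DEAD-box proteins eIF4A1, eIF4A2 and DDX6 and the Ccr4-Not complex act on translation. In the RNA immunoprecipitation experiment (RIP), untreated cells gave 4 groups of 3 libraries, namely total RNA and RNA recovered with antibodies against endogenous eIF4A1, eIF4A2 or DDX6 (eIF4A1 IP, eIF4A2 IP and DDX6 IP). A control-antibody IP was not analysed here. In the gradient experiment, cells transfected with control siRNA or with siRNA against CNOT1, the scaffold of Ccr4-Not, gave input RNA, a subpolysomal pool of gradient fractions 1 to 5 and a polysomal pool of fractions 6 to 11, with 4 libraries in each of the 6 groups. In the TNRC6 experiment, total RNA came from cells with control siRNA or with siRNAs against TNRC6A and TNRC6B, with 2 libraries per group. The genotype was that of the parental line in all 12 groups.

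Polyamines are small cations made from ornithine. Ornithine decarboxylase (ODC1) forms putrescine, and spermidine synthase (SRM) and spermine synthase (SMS) then add aminopropyl groups that come from S-adenosylmethionine by way of its decarboxylase, AMD1. High polyamine levels favour a ribosomal frameshift on antizyme mRNAs (OAZ1, OAZ2), antizyme sends ornithine decarboxylase to the proteasome, antizyme inhibitor (AZIN1) takes antizyme up, and the acetyltransferase SAT1 starts catabolism and export. The pathway is known for control at translation, which includes an upstream reading frame in the AMD1 mRNA that responds to polyamines.

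The 2 antizyme mRNAs share the sequence that defines their family, the site where ribosomes must change frame to make full-length antizyme. It is shown 5′ to 3′ from the reference genome (GRCh37), with the last codon of the first frame and its stop codon in capitals.
OAZ1: cctcggtggtgcTCCTGAtgcccctcaccc
OAZ2: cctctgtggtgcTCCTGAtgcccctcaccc
The OAZ1 site is at chr19:2271427-2271456 on the plus strand and the OAZ2 site at chr15:64983700-64983729 on the minus strand, each inside a coding exon. The first frame of OAZ1 runs for 68 codons before the TGA stop codon and that of OAZ2 for 32, and the shifted frames hold a further 160 and 157 codons. Reads at this site count towards the gene whichever frame was translated, so the counts below do not report frameshifting.

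All 8 genes matched the GENCODE annotation of the same build. ODC1 lies at chr2:10580094-10588453, SRM at chr1:11114641-11120077, AMD1 at chr6:111195973-111220082, OAZ1 at chr19:2269508-2273489 and OAZ2 at chr15:64979772-64995480. SMS and SAT1 are both X-linked, at chrX:21958827-22012955 and chrX:23801290-23804327, and AZIN1 is on chromosome 8. An AUG upstream of the main start was present in the canonical transcript of 6 of the 8 (ODC1, SMS, AMD1, OAZ2, AZIN1 and SAT1). Over all 19096 coding transcripts, 43.1% held at least 1. The 8 genes were chosen partly for upstream open reading frame control, and the share was not matched for 5′UTR length. The comparison therefore cannot show an excess of upstream AUGs in the pathway. The AMD1 upstream frame was 6 codons long and began 12 nucleotides from the 5′ end of a 321-nucleotide 5′UTR, that of ODC1 was 10 codons long in a 5′UTR of 334 nucleotides, and AZIN1 held 3 such frames in 590 nucleotides. The upstream AUG of SMS and 1 of those of SAT1 opened frames of 30 and 29 codons that ran past the main start. OAZ2 held 2 upstream AUGs in the same frame, at nucleotides 1 and 7 of the transcript, with 39 and 37 codons to a shared stop. That frame, and a further one of 4 codons in SAT1, ended before the main start. SRM and OAZ1 held no upstream AUG, in 5′UTRs of 75 and 79 nucleotides. The study's own interest was in purine-rich 5′UTRs, where it counted short purine motifs per length, also directly before the main start. The longest uninterrupted purine run anywhere in the 5′UTR is another measure and is not scaled by length. It was 15 nucleotides in AMD1, 14 in SAT1, 13 in AZIN1, 9 in OAZ2, 7 in ODC1 and OAZ1, 4 in SMS and 3 in SRM. The median was 7 over all coding transcripts, whose median 5′UTR was 137 nucleotides long. Purines made up 57.0% of the 5′UTR of OAZ1 and 37.3% of that of SRM, the ends of the range among the 8, with a median of 51.0% over all. AMD1, SAT1 and AZIN1, with the longest runs, were at 52.6%, 55.3% and 39.3%.

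Depth ran from 15.4 to 46 M counts per library (M, mega), and the lowest count of any of the 8 mRNAs in any library was 230 reads (SAT1). Levels are normalised read counts, in counts per M of the TMM-scaled library total (CPM), and are shares of each library. As markers of the line, NEFL, NEFM and VIM stood at 66.0 CPM or more in every library, KRT8 and KRT18 at 2.65 to 51.0 CPM, while the kidney marker PAX2 was at 0.0983 to 1.57 CPM. Markers of liver, leukocytes and red cells (ALB, PTPRC and HBA1) did not exceed 0.399 CPM. CNOT1 mRNA itself was at 672 ± 35.7 CPM in control input and 39.6 ± 1.99 CPM after CNOT1 siRNA (SD, n = 4). In polysomal RNA the libraries labelled replicate 3 went against their labels. CNOT1 stood at 469.7, 500.4, 28.3 and 478 CPM in the libraries labelled control siRNA, replicates 1 to 4, and at 29, 24, 631 and 31.6 CPM in those labelled CNOT1 siRNA. The test results that rest on polysomal RNA are therefore given with and without both libraries labelled replicate 3. After TNRC6A/B siRNA, TNRC6A was at 52.6 ± 17.1 against 183 ± 7.32 CPM and TNRC6B at 22 ± 6.03 against 70.3 ± 3.83 CPM (SD, n = 2). The labels give replicate numbers but do not say that these were separate cultures, so the p-values measure the spread between these libraries, which may be technical.

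In bulk RNA, fewer cells with a transcript and less transcript per cell cannot be told apart. Per kilobase of exon, OAZ1 was the most abundant of the 8 in RIP total RNA at 218 ± 40.4 CPM per kb (SD, n = 3), followed by SRM at 131 ± 42.5, ODC1 at 109.8 ± 13.2 and SMS at 82.9 ± 8.53. The means of SRM and ODC1 were less than their 2 SDs apart. AMD1 followed at 49.7 ± 5.65, AZIN1 at 33.6 ± 1.94, SAT1 at 12.8 ± 0.892 and OAZ2 at 10.9 ± 1.71 CPM per kb, and the means of the last 2 were again less than their SDs apart. In control siRNA input OAZ1 again led with 151 ± 12 CPM per kb (n = 4), with ODC1 within the joint SDs at 131 ± 9.57, and SAT1 was lowest with 8.34 ± 1.34. Exon lengths were those of all annotated isoforms joined, which lowers the per-length level of genes with long minor isoforms. Most affected were OAZ2 (7671 nucleotides joined, 1934 in the canonical transcript), AMD1 (10193 and 3423) and OAZ1 (3436 and 1148). The order given, above all the low places of AMD1 and OAZ2, depends on this choice. Over all 40 libraries the range from the lowest to the highest CPM was 9.92-fold for SAT1, 7.93-fold for SRM, 7.74-fold for OAZ1, 4.28-fold for SMS, 4.01-fold for ODC1, 3.56-fold for OAZ2, 3.21-fold for AMD1 and 2.40-fold for AZIN1.

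**Figure D1:**
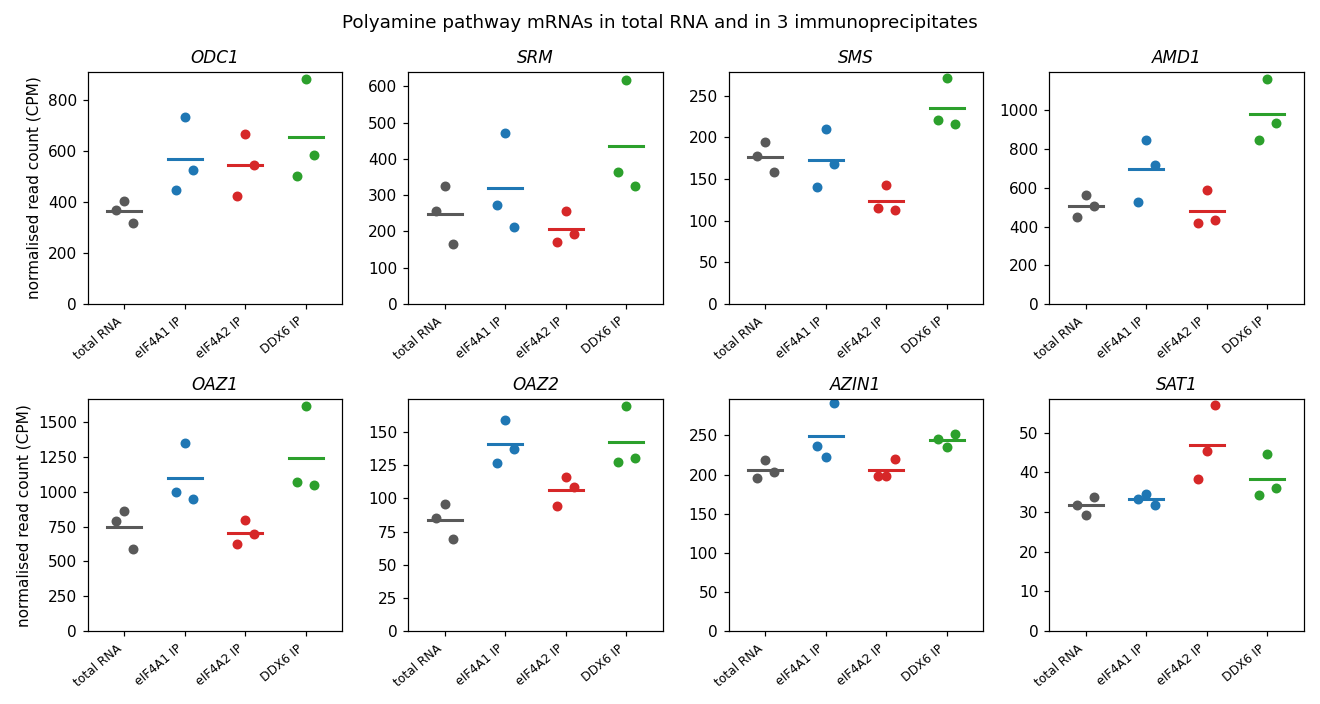
Normalised read count (CPM) of each polyamine pathway mRNA in the RIP experiment; points are libraries and bars are group means (n = 3). The DDX6 IP points of all 8 mRNAs lie above those of total RNA, as for 29.3% of all genes tested, and in the eIF4A2 IP the SMS points lie below them.

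The first comparison asked which of these mRNAs were enriched with eIF4A1, the helicase of the cap-binding complex. Both antizyme mRNAs and ODC1 were higher in the eIF4A1 IP than in total RNA. OAZ2 stood at 127, 159 and 137 CPM in the 3 IP libraries and 85, 95.6 and 69.5 CPM in the 3 total RNA libraries. All IP libraries were above all total RNA libraries, 1.69-fold by the fitted ratio (log2 fold change 0.76 ± 0.16 (SE); false discovery rate of edgeR's quasi-likelihood test, FDR, 0.00175). For ODC1 the IP libraries gave 447, 734 and 524 CPM and total RNA 368, 404 and 317 CPM. These did not overlap either, and the log2 fold change was 0.65 ± 0.24, FDR 0.0384. OAZ1 was at 1001, 1352 and 949 CPM in the IP against 789.7, 860.1 and 592 CPM, again without overlap (0.56 ± 0.21, FDR 0.0423).

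The other 5 mRNAs did not pass the test in the eIF4A1 IP, with log2 fold changes from -0.03 for SMS to 0.46 ± 0.20 for AMD1 (FDR 0.0731). Among them AZIN1 did not overlap either, at 222 to 292 CPM in the IP against 196 to 219 CPM in total RNA. The 3 of 8 called higher and 0 called lower stand beside 26.1% of all 17474 tested genes called higher and 26.5% lower, so the count does not set the pathway apart from this background. The median log2 fold change was 0.41 over the 8 and 0.04 over all genes. With the replicate number as a block, 5 of the 8 were called (64.5% of all genes), the added ones being AMD1 (0.44, FDR 0.00478) and AZIN1 (0.27, FDR 0.0421). ODC1 lost its call without total RNA replicate 1, 2 or 3 (FDR 0.0835, 0.0525 and 0.123) and without eIF4A1 IP replicate 2 (0.199). OAZ1 lost its call without total RNA replicate 1 or 3 (FDR 0.0746 and 0.156), without eIF4A1 IP replicate 1 or 2 (0.05004 and 0.201), and with another scaling of the libraries (RLE, 0.0519). AMD1 was called without eIF4A1 IP replicate 1 (FDR 0.0220) and without a filter on low counts (0.0414). The call of OAZ2 held in every setting run.

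With eIF4A2, which the study examined as a partner of Ccr4-Not, 1 mRNA passed the test upwards and 1 downwards. SAT1, the catabolic acetyltransferase, was at 38.4, 45.3 and 57 CPM in the eIF4A2 IP and 31.9, 29.3 and 33.8 CPM in total RNA. Every IP library exceeded every total RNA library, by 1.48-fold in the fit (log2 fold change 0.57 ± 0.16, FDR 0.00780). SMS, which makes spermine, was at 115, 143 and 113 CPM against 178, 194 and 158 CPM. Its IP libraries were all below total RNA, 1.43-fold lower (-0.52 ± 0.17, FDR 0.0223).

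ODC1 gave 425, 666 and 545 CPM in the eIF4A2 IP, above total RNA in each library, and just missed the threshold (log2 fold change 0.59 ± 0.24, FDR 0.0585). For SRM, AMD1, OAZ1, OAZ2 and AZIN1 the groups overlapped, with log2 fold changes of -0.27 ± 0.33, -0.08 ± 0.20, -0.08 ± 0.21, 0.35 ± 0.16 and -0.00 ± 0.13. Of the 8, 1 was called higher and 1 lower, against 24.5% and 25.8% of all genes, with a median of -0.04 over the 8 and 0.01 over all. The block brought the calls to 4 (62.4% of all genes), adding ODC1 (0.56, FDR 0.00302) and OAZ2 (0.36, FDR 0.0106). ODC1 was also called by DESeq2 (FDR 0.0457), without a filter on low counts (0.0116) and without eIF4A2 IP replicate 1 (0.0338). Both ODC1 and OAZ2 were called when the fit held only the compared libraries (0.0151 and 0.0447). SMS lost its call without total RNA replicate 1 or 2 (FDR 0.0562 and 0.0852) or without eIF4A2 IP replicate 1 or 3 (0.0769 and 0.0725).

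The DDX6 IP, named for the RNA helicase of P-bodies that binds CNOT1, was compared with total RNA in the same fit. ODC1, AMD1, OAZ1 and OAZ2 were higher in it, and for all 8 mRNAs the 3 IP libraries lay above the 3 total RNA libraries, as they did for 29.3% of all genes tested. AMD1, which supplies the aminopropyl donor, was at 847, 1162 and 933 CPM in the IP against 449, 564 and 508 CPM. Its lowest IP library was well above its highest total RNA library, and the log2 fold change was 0.95 ± 0.21, FDR 0.00215, or 1.93-fold. ODC1 stood at 504, 883 and 583 CPM in the DDX6 IP (0.85 ± 0.24, FDR 0.0115). OAZ1 was at 1072, 1614 and 1052 CPM (0.74 ± 0.22, FDR 0.0131). OAZ2 was at 128, 169.8 and 130.1 CPM (0.77 ± 0.16, FDR 0.00195).

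In all 4 of these mRNAs the DDX6 IP library of replicate 2 was the highest and total RNA of replicate 2 was the highest of its group too. SRM at 364, 618 and 326 CPM and SMS at 220.3, 271 and 216 CPM in the IP missed the threshold (log2 fold change 0.81 ± 0.33, FDR 0.0579; 0.41 ± 0.17, FDR 0.0620). AZIN1 and SAT1 differed least, by 0.25 ± 0.13 and 0.28 ± 0.15 (FDR 0.144 and 0.161). The 4 of 8 called higher and 0 lower stand beside 22.7% and 23.3% of all genes, and the median log2 fold change was 0.75 over the 8 and 0.01 over all genes. With the block 6 of 8 were called (60% of all genes), adding SRM (0.80, FDR 5.50e-04) and SMS (0.41, FDR 0.00455). Without DDX6 IP replicate 2 the count fell to 2, as ODC1 (FDR 0.0645) and OAZ1 (0.0696) missed the threshold, and OAZ1 also missed it without total RNA replicate 3 (0.0572). SRM was called without total RNA replicate 2 or DDX6 IP replicate 3 (FDR 0.0393 and 0.0389), by DESeq2 (0.0348) and without a filter on low counts (1.41e-04). Both SRM and SMS were called when only the compared libraries were fitted (0.0273 and 0.0295).

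**Figure D2:**
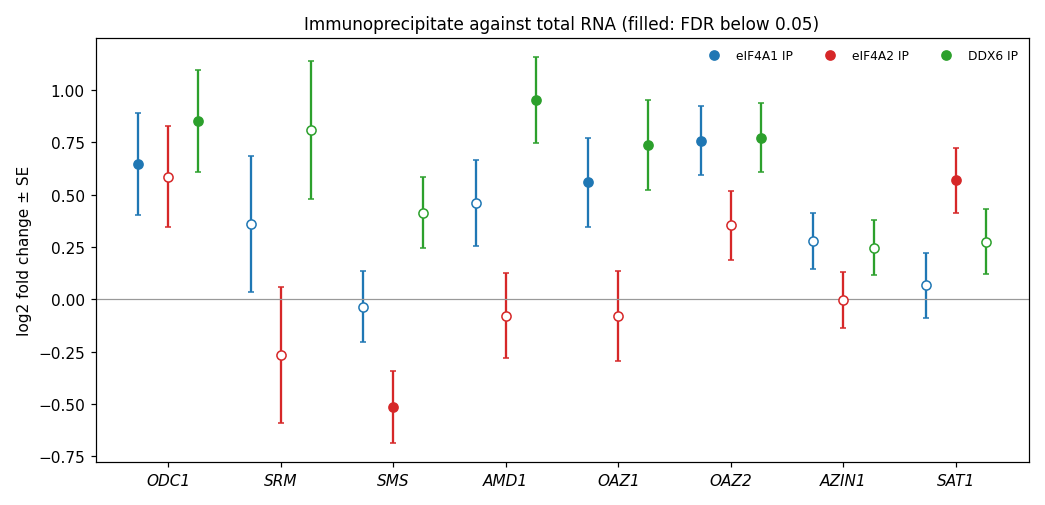
Log2 fold change (± SE) of each mRNA in each IP against total RNA, from the edgeR fit of 12 libraries; filled points passed an FDR of 0.05. The eIF4A2 IP values lie below those of the DDX6 IP for 7 of the 8 mRNAs and above it for SAT1.

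All 3 IPs were set against the same total RNA libraries, so the IPs were also compared with each other. Against the DDX6 IP, the eIF4A2 IP held less of the mRNAs for both aminopropyl transferases, for AMD1 and for OAZ1. The log2 differences, eIF4A2 IP minus DDX6 IP, were -1.08 ± 0.33, FDR 0.0355 for SRM, -0.93 ± 0.17, FDR 0.00425 for SMS, -1.03 ± 0.21, FDR 0.00563 for AMD1 and -0.82 ± 0.22, FDR 0.0190 for OAZ1. From the values above, SMS was at 113 to 143 CPM in the eIF4A2 IP and at 216 to 271 CPM in the DDX6 IP, and AMD1 was at 419.6, 588 and 433 CPM in the eIF4A2 IP. None of these 4 overlapped between the 2 IPs, and 20.5% of all genes tested were lower with eIF4A2 without overlap. OAZ2 and AZIN1 also did not overlap but missed the threshold (-0.42 ± 0.16, FDR 0.0821; -0.25 ± 0.13, FDR 0.194), while ODC1 (-0.27 ± 0.24) and SAT1 (0.29 ± 0.15) overlapped.

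Of the 8, 4 were called lower with eIF4A2 and 0 higher, where 11.3% of all genes were called lower and 9.82% higher, and the medians were -0.62 over the 8 and 0.00 over all. The block added OAZ2 (-0.41, FDR 0.00840), with 5 of 8 and 40.5% of all genes called. The count fell to 2, SMS and AMD1, without eIF4A2 IP replicate 1 (SRM FDR 0.126, OAZ1 0.0798) and without DDX6 IP replicate 2 (0.163 and 0.0906), and SRM missed the threshold without eIF4A2 IP replicate 3 (0.0891).

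Between the eIF4A2 and eIF4A1 IPs none of the 8 was called, where 0.973% of all genes were called higher and 0.0858% lower. Before adjustment 1647 genes were higher and 1469 lower at p under 0.05, and the DESeq2 counts were 541 and 159, again with 0 of the 8. Samples of the same number deviated together in these libraries, and with the replicate block 6 of the 8 were called (15.8% of all genes). In that fit SRM (-0.55, FDR 0.0277), SMS (-0.48, FDR 0.0123), AMD1 (-0.53, FDR 0.0119), OAZ1 (-0.62, FDR 0.0106) and OAZ2 (-0.40, FDR 0.0243) were lower with eIF4A2. SAT1 was higher (0.49, FDR 0.0273), and its eIF4A2 IP libraries of 38.4, 45.3 and 57 CPM were all above the 33.2, 34.6 and 31.7 CPM of the eIF4A1 IP. Without a filter on low counts, SRM and OAZ1 were called lower (FDR 0.0313 and 0.0357).

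The DDX6 and eIF4A1 IPs differed least, with 0 of the 8 called and 0.0801% of all genes higher and 0.0114% lower. Before adjustment 1341 genes were higher and 1097 lower at p under 0.05, and the DESeq2 counts were 359 and 182. With the block, AMD1 (0.50, FDR 0.0212) and SMS (0.46, FDR 0.0210) were higher with DDX6, 2 of 8 against 9.9% of all genes. ODC1 and the antizymes were close in both IPs, with log2 differences of 0.21 ± 0.24 for ODC1, 0.18 ± 0.21 for OAZ1 and 0.01 ± 0.16 for OAZ2.

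The gradients asked where each mRNA sits between free or lightly translated RNA and polysomes. In control cells SAT1 held a far larger share of the subpolysomal libraries, and SMS and AZIN1 held a larger share of the polysomal ones. SAT1 was at 81.1, 71.6, 76.5 and 80.9 CPM in subpolysomal and 13.9, 14.1, 18.7 and 18.9 CPM in polysomal libraries 1 to 4, and the input held 19.5, 16.6, 22.5 and 24.1 CPM. The subpolysomal level was 4.98-fold above the polysomal one (log2 fold change, polysomal over subpolysomal, -2.32 ± 0.16, FDR 7.81e-07), with no overlap. The value was -2.34 ± 0.15, FDR 1.26e-06 without both polysomal libraries labelled replicate 3.

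SMS ran the other way, at 188, 209, 143 and 212 CPM in polysomal and 63.3, 80.4, 65.7 and 66.4 CPM in subpolysomal RNA. The polysomal libraries were all above the subpolysomal ones, by 2.60-fold (1.38 ± 0.17, FDR 2.76e-05; 1.53 ± 0.11, FDR 2.08e-06 without those libraries). AZIN1, which has 3 upstream frames, was at 262, 287, 243 and 285 against 173, 201, 127 and 142 CPM, also without overlap (0.68 ± 0.15, FDR 0.00219; 0.77 ± 0.14, FDR 6.23e-04). OAZ2 was at 99.6, 110.4, 53 and 95.8 against 63.9, 51.7, 78.9 and 55.4 CPM, and the library labelled control polysomal replicate 3 was the only polysomal one inside the subpolysomal range. With it OAZ2 was not called (0.45 ± 0.24, FDR 0.118), and without it or without both libraries labelled replicate 3 it was (0.67 ± 0.16, FDR 0.00397); it was also called without subpolysomal replicate 3 (FDR 0.0310), without a filter on low counts (0.00880) and with all 24 gradient libraries fitted together (0.00841).

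ODC1, SRM, AMD1 and OAZ1 overlapped between the fractions, with log2 fold changes of 0.20 ± 0.18, -0.29 ± 0.32, -0.31 ± 0.18 and -0.30 ± 0.32, and of 0.34 ± 0.15, -0.06 ± 0.29, -0.22 ± 0.17 and -0.09 ± 0.30 without both libraries labelled replicate 3. The mean ratio within gradients turned from -0.22 to 0.22 for SRM and from -0.18 to 0.29 for OAZ1 on the log2 scale when gradient 3 was left out. SRM and OAZ1 varied most between gradients. In subpolysomal libraries 1 to 4 OAZ1 was at 433, 461, 1043 and 673 CPM, and in the polysomal libraries at 764, 631, 346 and 511 CPM, so that gradient 3 had the highest subpolysomal and the lowest polysomal value. Of the 8, 2 were called higher in polysomes and 1 lower, against 30.3% and 34.9% of all genes; without both libraries labelled replicate 3 it was 3 and 1, against 31% and 36.8%. The median log2 fold change was -0.04 over the 8 and -0.06 over all genes, and 0.14 and -0.10 without those libraries.

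**Figure D3:**
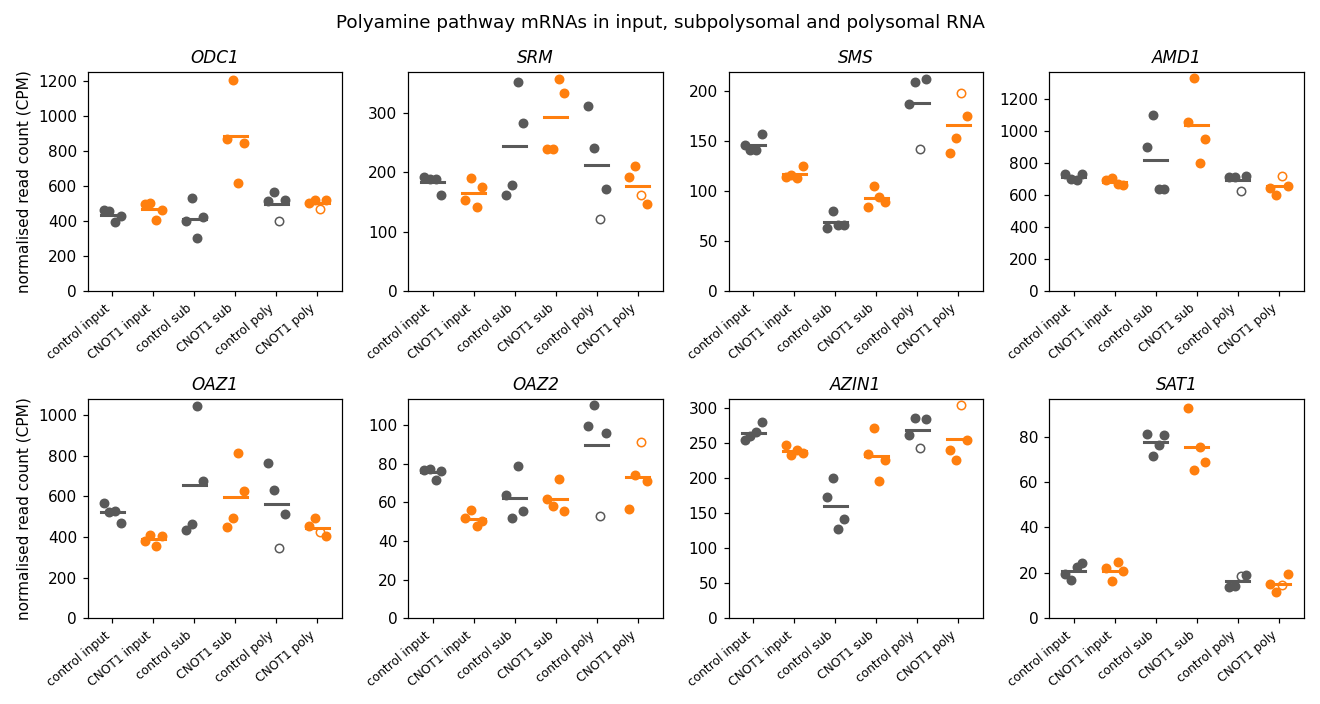
Normalised read count (CPM) of each mRNA in input, subpolysomal (sub) and polysomal (poly) RNA of cells with control or CNOT1 siRNA; points are libraries, bars are means of 4, and open points are the polysomal libraries labelled replicate 3. ODC1 in subpolysomal RNA lies at 301 to 534 CPM with control siRNA and at 615 to 1207 CPM with CNOT1 siRNA.

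Knockdown of CNOT1 was first read in input RNA. Both antizyme mRNAs, SMS and AZIN1 fell, and with the replicate block, given below, ODC1 rose. OAZ2 was at 51.8, 56.1, 47.7 and 50.2 CPM after CNOT1 siRNA and 77, 77.6, 71.9 and 76.3 CPM with control siRNA. The groups were far apart for the spread within them, 1.46-fold (log2 fold change -0.54 ± 0.06, FDR 9.88e-07). OAZ1 was at 379, 409, 357 and 406 against 567, 522, 526 and 467 CPM (-0.41 ± 0.06, FDR 3.35e-05). SMS was at 114, 116, 113 and 125 against 147, 142, 141 and 157 CPM (-0.31 ± 0.06, FDR 2.16e-04). Neither overlapped. AZIN1 fell least, from 265 ± 11.2 to 239 ± 6.51 CPM (SD, n = 4; -0.13 ± 0.05, FDR 0.0352), and its groups were separated by a narrow gap, 254 against 248 CPM.

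The remaining 4 differed little in input, with ODC1 at 0.12 ± 0.07, SRM at -0.13 ± 0.08, AMD1 at -0.05 ± 0.05 and SAT1 at 0.03 ± 0.13 on the log2 scale. Of the 8, 4 were called lower and 0 higher, where 30% of all genes were called lower and 30.9% higher, and the median was -0.13 over the 8 and 0.00 over all. With the replicate block ODC1 was called higher (0.12, FDR 0.0122), giving 5 of 8 against 66.3% of all genes. AZIN1 lost its call without control input replicate 3 or 4 (FDR 0.0611 and 0.109), without CNOT1 siRNA input replicate 2 or 4 (0.0912 and 0.0503), and without a filter on low counts (0.106). Without CNOT1 siRNA input replicate 3, ODC1 was called higher (FDR 0.0250), and without replicate 2 SRM was called lower (0.0261). In 1 fit of all 24 gradient libraries, OAZ1 (FDR 0.153) and AZIN1 (0.358) were not called.

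In subpolysomal RNA the mRNAs that passed the test, ODC1, SMS and AZIN1, were all higher after CNOT1 siRNA. ODC1 was at 867, 1207, 615 and 844 CPM in the 4 CNOT1 siRNA libraries and 399, 534, 301 and 421 CPM in the 4 control libraries. The lowest CNOT1 siRNA library exceeded the highest control library, and within each number the CNOT1 siRNA library was over 2 times the control one, 2.19-fold in the fit (log2 fold change 1.13 ± 0.20, FDR 0.00358). SMS was at 84.5, 105, 93.7 and 88.9 against 63.3, 80.4, 65.7 and 66.4 CPM, with no overlap (0.47 ± 0.11, FDR 0.0121). AZIN1 was at 234, 272, 196 and 226 against 173, 201, 127 and 142 CPM, where CNOT1 siRNA replicate 3 lay inside the control range (0.57 ± 0.14, FDR 0.0148).

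AMD1 was at 1055, 1331, 801 and 950.3 against 899, 1099.8, 635 and 636 CPM, and SRM at 239, 240.3, 358 and 334 against 162, 179, 353 and 283 CPM. Their groups overlapped, and neither was called (0.38 ± 0.19, FDR 0.167; 0.28 ± 0.26, FDR 0.455), though within each number the CNOT1 siRNA library was the higher one for both mRNAs. Same-numbered subpolysomal libraries deviated together, and with the replicate block AMD1 (0.39, FDR 0.00108) and SRM (0.34, FDR 0.00292) were called as well. OAZ1, OAZ2 and SAT1 differed by -0.12 ± 0.30, 0.01 ± 0.16 and -0.01 ± 0.12, less than their spread. Of the 8, 3 were called higher and 0 lower, beside 12.6% and 15.2% of all genes, and 5 of 8 with the block, beside 58.2% in either direction. The median was 0.33 over the 8 and -0.04 over all genes. Without control subpolysomal replicate 2, AMD1 was called higher too (FDR 0.0429).

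Polysomal RNA gave no call for any gene when all 8 libraries were used, 0% of 14474 genes higher and 0% lower, with 38 and 61 genes past an unadjusted p of 0.05 and 0 called by DESeq2. The 8 mRNAs then lay between -0.35 ± 0.21 for OAZ1 and 0.01 ± 0.13 for ODC1. Without both libraries labelled replicate 3, which leaves 3 per group, SMS (-0.39 ± 0.10, FDR 0.0122), OAZ1 (-0.51 ± 0.14, FDR 0.0160) and OAZ2 (-0.60 ± 0.11, FDR 0.00238) were lower after CNOT1 siRNA. OAZ2 was at 56.5, 74.3 and 71.4 CPM against 99.6, 110.4 and 95.8 CPM in replicates 1, 2 and 4. These did not overlap, whereas the libraries labelled replicate 3 lay the other way round, at 91.1 CPM with CNOT1 siRNA and 53.0 CPM with control siRNA.

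That was 3 of 8 lower and 0 higher, against 18.9% and 21.8% of all genes, with a median of -0.30 over the 8 and 0.01 over all, where all 8 libraries gave -0.14 and 0.01. The 3 remaining pairs deviated together, and with the block 6 of 8 were called lower, against 58.3% of all genes in either direction. The added ones were SRM (-0.39, FDR 4.92e-07), AMD1 (-0.18, FDR 0.00971) and AZIN1 (-0.22, FDR 0.00488). ODC1, which rose in subpolysomal RNA, was at -0.05 ± 0.08, FDR 0.608 in polysomal RNA, and SAT1 was at -0.02 ± 0.20.

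**Figure D4:**
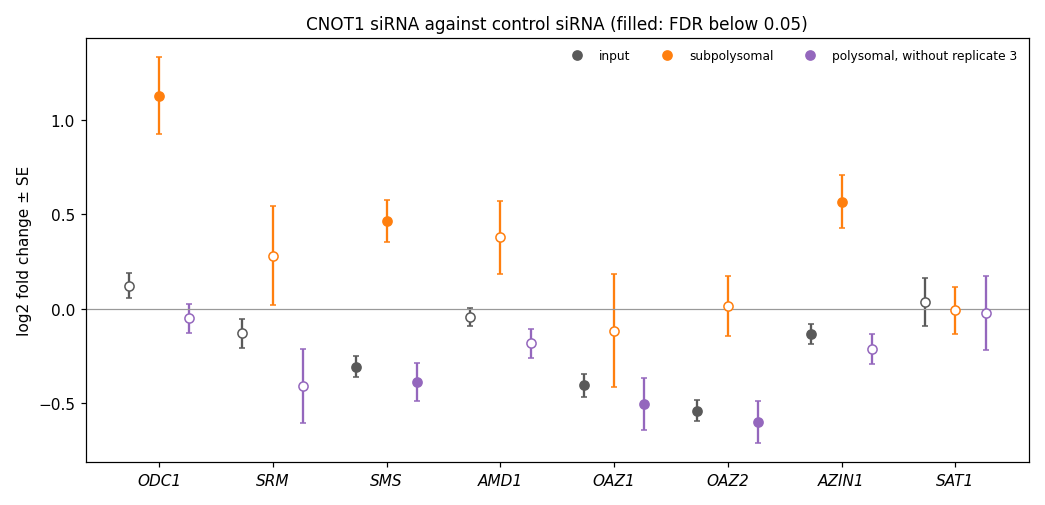
Log2 fold change (± SE) after CNOT1 siRNA in input (n = 4 per group), subpolysomal (n = 4) and polysomal RNA (n = 3, without both libraries labelled replicate 3), from edgeR; filled points passed an FDR of 0.05. ODC1 passes the test in subpolysomal RNA, and OAZ1, OAZ2 and SMS lie lower in input and polysomal RNA.

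The change in distribution was then read within gradients. The log2 ratio of polysomal to subpolysomal CPM of ODC1 was 0.36, 0.08, 0.40 and 0.30 in control gradients 1 to 4 and -0.79, -1.21, -0.39 and -0.69 in CNOT1 siRNA gradients 1 to 4. In every control gradient ODC1 held a larger share of the polysomal library, and in every CNOT1 siRNA gradient of the subpolysomal one, gradient 3 included. Each pool was scaled to its own library total, so the sign of a ratio does not say which pool held more mRNA. For SMS the ratios were 1.56, 1.38, 1.11 and 1.67 with control siRNA and 0.71, 0.53, 1.08 and 0.98 with CNOT1 siRNA. SMS ratios were positive in all 8 gradients, and the highest CNOT1 siRNA ratio was below the lowest control ratio. Both of these, 1.08 and 1.11, were of gradient 3, whose polysomal libraries went against their labels. AZIN1 gave 0.60, 0.51, 0.93 and 1.00 and 0.04, -0.26, 0.63 and 0.17, where the CNOT1 siRNA gradient labelled 3 lay inside the control range.

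AMD1 ratios were -0.34, -0.62, -0.03 and 0.17 with control siRNA and -0.72, -1.15, -0.16 and -0.54 with CNOT1 siRNA, and SAT1 stayed between -2.58 and -1.78 in all 8 gradients. SRM and OAZ1 ratios spread over more than 1 log2 unit within control gradients, from -1.54 to 0.95 for SRM and from -1.59 to 0.82 for OAZ1. Both low ends are gradient 3, and without it the ranges were -0.71 to 0.95 and -0.40 to 0.82. OAZ2 gave 0.64, 1.09, -0.57 and 0.78 and -0.13, 0.35, 0.34 and 0.35.

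**Figure D5:**
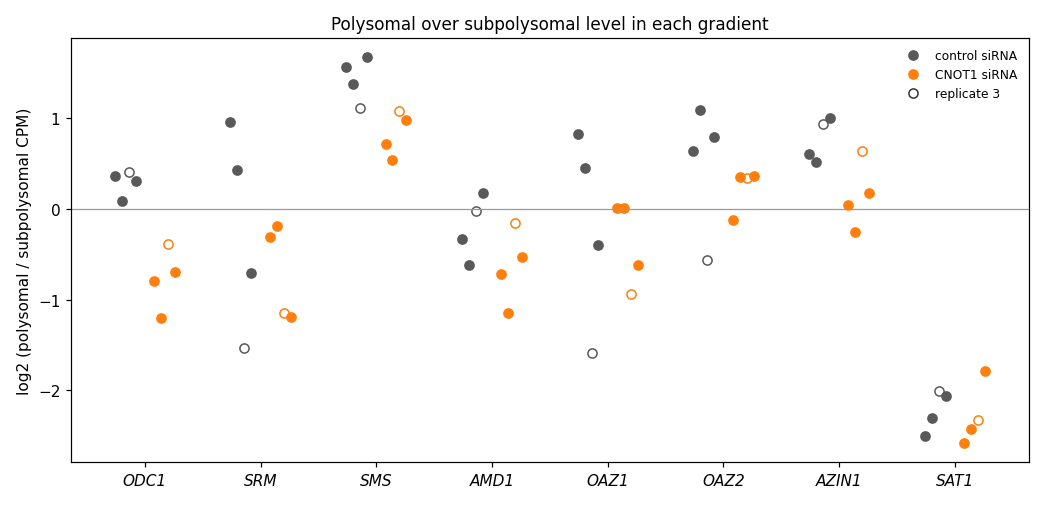
Log2 ratio of polysomal to subpolysomal CPM of each mRNA in each gradient, with 4 gradients per siRNA; open points are the gradients labelled 3. The ODC1 ratios are above 0 with control siRNA and below 0 with CNOT1 siRNA.

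The test of this shift is the interaction of fraction and siRNA over 16 libraries, and it called 0 of the 8, with 0.576% of all genes called higher and 0.376% lower. ODC1 came closest (-1.08 ± 0.26, FDR 0.0528), followed by SMS (-0.61 ± 0.21, FDR 0.163) and AZIN1 (-0.60 ± 0.21, FDR 0.177), and the SE of the shift was larger for SRM (-0.51 ± 0.38) and OAZ1 (-0.21 ± 0.37). AMD1, OAZ2 and SAT1 were at -0.42 ± 0.25, -0.28 ± 0.28 and -0.06 ± 0.23. Without adjustment 1469 genes were higher and 1022 lower at p under 0.05, and DESeq2 gave 271 and 307 calls, ODC1 among the lower (FDR 0.00694). Without both polysomal libraries labelled replicate 3, the polysomal share fell relative to the subpolysomal share for ODC1 (-1.14 ± 0.27, FDR 0.0163), SMS (-0.82 ± 0.16, FDR 0.00716) and AZIN1 (-0.74 ± 0.20, FDR 0.0302). That was 3 of 8 lower and 0 higher, against 3.97% and 5.47% of all genes. The others were then at -0.66 ± 0.36 for SRM, -0.51 ± 0.26 for AMD1, -0.36 ± 0.37 for OAZ1, -0.58 ± 0.21 for OAZ2 and 0.02 ± 0.23 for SAT1. The median was -0.47 over the 8 and 0.06 over all genes, and -0.62 and 0.07 without those libraries. ODC1 was also called when control subpolysomal replicate 2 (FDR 0.0331), CNOT1 siRNA subpolysomal replicate 3 (0.0496) or control polysomal replicate 3 (0.0194) was left out, the last also with a call of SMS (0.0322). It was called without a filter on low counts (5.14e-04), and in 1 fit of all 24 gradient libraries ODC1, SMS and AZIN1 were called (FDR 0.00621, 0.0366 and 0.0411).

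TNRC6A and TNRC6B link Argonaute to Ccr4-Not, and their joint knockdown was measured in total RNA. None of the 8 mRNAs passed the test with 2 libraries per group, nor did any other of 14064 genes, 0% in each direction. Before adjustment 173 genes were higher and 116 lower at p under 0.05, and DESeq2 gave 6 and 2 calls, none of them among the 8. Same-numbered libraries deviated together here, and with the replicate block 520 genes were called higher and 243 lower, again none of the 8. ODC1 was at 501 and 359.6 CPM after TNRC6A/B siRNA and 598 and 389 CPM with control siRNA, replicate 1 being the higher in both groups. AMD1 was the 1 mRNA without overlap, where 10.2% of all genes were higher in this way, at 587 and 599 against 415 and 535 CPM (log2 fold change 0.32 ± 0.20, FDR 1.00). The libraries of replicates 1 and 2 stood far apart within each group, as for OAZ1 at 629.5 and 209 CPM with control siRNA and 555 and 266 CPM with TNRC6A/B siRNA, and for SRM at 273 and 77.8 and 292 and 123 CPM. The other log2 fold changes ran from -0.24 ± 0.58 for SAT1 to 0.24 ± 0.71 for SRM.

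A wider list of 26 genes around the pathway held 24 that passed the filters. Among them 6 were called higher and 7 lower in the eIF4A1 IP, 4 and 9 in the eIF4A2 IP, and 6 and 5 in the DDX6 IP. Over all genes the shares called higher and lower were 26.1% and 26.5%, 24.5% and 25.8%, and 22.7% and 23.3%. The largest change in the eIF4A2 IP was a fall of ARG2, the arginase that makes ornithine (-1.65 ± 0.15, FDR 2.45e-06), and the largest rise was that of AZIN2, an antizyme inhibitor listed under its older symbol ADC (1.12 ± 0.17, FDR 1.16e-04). SMOX, spermine oxidase, rose in the DDX6 IP (1.17 ± 0.20, FDR 3.83e-04). SLC3A2, a subunit of amino acid transporters, fell there (-1.27 ± 0.20, FDR 2.72e-04). Directly between eIF4A2 and DDX6 IPs 1 was higher and 9 lower, against 9.82% and 11.3% of all genes, with EIF5AL1, a near-identical copy of EIF5A whose reads may be shared with it, lowest (-1.11 ± 0.35, FDR 0.0385). None was called in the other direct comparisons, eIF4A2 against eIF4A1 and DDX6 against eIF4A1.

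In the gradients 12 of these 24 were higher in polysomal than subpolysomal RNA and 6 lower, against 30.3% and 34.9% of all genes, and 14 and 5 against 31% and 36.8% without both libraries labelled replicate 3. ATP13A2, a lysosomal polyamine exporter, had the largest rise, followed by EIF5AL1 (2.14 ± 0.32, FDR 1.40e-04 and 2.14 ± 0.29, FDR 6.56e-05), and OAZ3, the testis antizyme, the largest fall (-3.08 ± 0.30, FDR 6.91e-06). Without those libraries the values were 2.25 ± 0.34, 2.33 ± 0.24 and -2.96 ± 0.30. The levels of OAZ3 and EIF5AL1 were low. OAZ3 was at a mean of 5.08 CPM in control subpolysomal and 0.631 CPM in control polysomal RNA, and EIF5AL1 at 1.55 and 7.18 CPM. After CNOT1 siRNA 6 were higher and 11 lower in input, against 30.9% and 30% of all genes, where DOHH, which completes hypusine, rose most (0.87 ± 0.12, FDR 2.03e-05) and EIF5A2 fell most (-0.63 ± 0.09, FDR 2.39e-05). In subpolysomal RNA it was 3 and 4, against 12.6% and 15.2%, led by ARG2 (0.98 ± 0.18, FDR 0.00401) and MAT2A, which makes S-adenosylmethionine (-0.66 ± 0.15, FDR 0.0118). Polysomal RNA and the shift gave 0 calls with all libraries; without both libraries labelled replicate 3 it was 4 higher and 6 lower in polysomal RNA (21.8% and 18.9% of all genes) and 2 and 2 for the shift (5.47% and 3.97%), the latter including a fall of ATP13A3 (-0.91 ± 0.20, FDR 0.0107), a polyamine transporter. No gene of the list was called after TNRC6A/B siRNA.

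Across the 12 group means, centred within each experiment, AMD1 and SRM had the most similar profiles of the 28 pairs of the 8 mRNAs (Pearson r = 0.967), and SMS and SAT1 the most opposite ones (r = -0.840). Among 8825 genes with at least 10 CPM in each experiment, the profile of ODC1 was most like those of B4GALT5 (r = 0.964), SLC44A2 (0.953) and RNF41 (0.952). OAZ1 was most like LAMTOR4 (0.984), SSNA1 (0.981) and MRP63 (0.969), and AMD1, after SRM, most like SPTSSA (0.929) and ATXN2L (0.914). The 12 means share libraries and scaling within each experiment, the polysomal means include both libraries labelled replicate 3, and the values are descriptions.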

How the data were processed

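Strand-specific poly(A) RNA-Seq libraries (Illumina TruSeq kit) were prepared from HEK293 cells in 12 groups. Per the labels, the reads were demultiplexed with bcl2fastq 2.0, aligned to hg19 (GRCh37) with TopHat2 and counted with HTSeq, and the deposited files hold these counts, 1 whole number per symbol and library and not normalised by the authors. The strand option of the counting was not given in the sources used here, so reads of overlapping antisense genes cannot be told apart. A further deposited table holds the authors' own tests of each IP (log2 fold change, log2 mean CPM, likelihood ratio, p-value and FDR) and was not used.

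The counts were tested with edgeR 4.0.16 (limma 3.58.1, version 1.17.8 of data.table, R 4.3.3), with filterByExpr, TMM factors and two-sided quasi-likelihood F-tests, adjusted after Benjamini and Hochberg over all genes tested, and a gene was called at an FDR below 0.05. The RIP fit held all 12 libraries, and every other comparison held the libraries compared. The share of all genes whose libraries did not overlap was computed only where it is given. Polysomal to subpolysomal ratios used a pseudocount of 0.5 CPM, and counting error is the only error that depth describes, since reads carry no molecular identifiers. The script was tested on simulated counts. Each result was recomputed with DESeq2 1.42.0, with RLE factors, without the filter, with other sets of libraries, with each library left out, and with the replicate number as a block. The pairing check correlated the deviation of a library from its group mean with that of the library of the same number, and r was 0.18 or more in every RIP pair, in input and in subpolysomal RNA, and 0.33 or more in polysomal RNA without replicate 3, so the numbers were taken as pairing these libraries. In the TNRC6 experiment, with 2 libraries per group, r was 0.86. The description of the RIP total RNA library titled replicate 3 names replicate 2, and the title was used. Each IP library correlated best with total RNA of its own number. Same-numbered libraries did not deviate together between fractions or in polysomal RNA with all libraries, where the lowest r was -0.57. Between the fractions of control gradients r ran from -0.47 to 0.19. Fractions of 1 gradient may still depend on each other, and the fits without a block do not take this into account.

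The 8 mRNAs were named in every comparison, the wider list was given as counts with its largest changes, and for ODC1, OAZ1 and AMD1 the 3 genes of most similar profile were named. The members and lists were chosen with earlier results of these data known. Gene models and sequence came from GENCODE 44 on GRCh37, and coordinates are 1-based.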

Additional observations from a re-analysis of the deposited data

Results flagged for a closer look

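Among the 48 groups of 4 gradient libraries, 2 had a library far from the other 3 by Dixon's criterion at the 95% level, where chance gives about 1 in 20 groups. SRM stood at 163 CPM in control siRNA input replicate 4, below the 192, 189 and 189 CPM of the other input libraries. AMD1 stood at 624 CPM in the library labelled control siRNA polysomal replicate 3, below 712, 714 and 715 CPM, and this is 1 of the 2 polysomal libraries whose CNOT1 level goes against the label.

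The effects of 2 IPs against the same total RNA differed by the edgeR test of the difference for 4 mRNAs. The log2 difference, eIF4A2 IP minus DDX6 IP, was -1.08 for SRM, -0.93 for SMS, -1.03 for AMD1 and -0.82 for OAZ1.

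The effect of CNOT1 siRNA differed between polysomal and subpolysomal RNA by the edgeR interaction test without both polysomal libraries labelled replicate 3. The difference was -1.14 for ODC1, -0.82 for SMS and -0.74 for AZIN1 on the log2 scale, polysomal minus subpolysomal.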

How the results depend on the processing

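No member that was called in any setting changed direction. With the replicate block, where the numbers pair the libraries, the number of the 8 called rose from 3 to 5 (eIF4A1 IP), 2 to 4 (eIF4A2 IP), 4 to 6 (DDX6 IP), 4 to 5 (eIF4A2 against DDX6), 0 to 6 (eIF4A2 against eIF4A1), 0 to 2 (DDX6 against eIF4A1), 4 to 5 (input, CNOT1 siRNA) and 3 to 5 (subpolysomal, CNOT1 siRNA); the calls it added are given beside those results, and it changed no other call in these comparisons. For the polysomal shift, where same-numbered libraries did not all deviate together, it gave 1 call. Over all genes in the TNRC6 experiment it gave 520 higher and 243 lower calls in place of 0. Leaving both polysomal libraries labelled replicate 3 out gave 3 calls for polysomal RNA and 3 for the shift, and 6 and 4 with the block as well. That last setting was chosen after seeing the data, and in it OAZ2 joined the shift (-0.59, FDR 0.0249). Among counts that moved from 0 or by more than 1.5-fold, DESeq2 gave 1 call for the shift. No filter on low counts gave 2 for eIF4A2 against eIF4A1 and 1 for the shift. Only the compared libraries gave 4 for the eIF4A2 IP, and all 24 gradient libraries gave 2 for input and 3 for the shift. With each library left out in turn, the eIF4A1 IP had 1 to 3 calls, the eIF4A2 IP 1 to 2, the DDX6 IP 2 to 5, eIF4A2 against DDX6 2 to 4 and the shift 0 to 2. The causes were not tested. Of 96 group levels, 15 moved by more than 1 SD when CPM was taken without TMM scaling. Groups of 2 to 4 libraries limit these tests.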
